A study of Danio rerio with 10 samples.

Results

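The genes described are those of the zebrafish cytosolic ribosomal proteins. They were taken as every Ensembl identifier in the count files whose symbol begins with rpl or rps and a digit, or with rplp and a digit, after the S6 kinases (rps6k symbols) had been left out. The rule used names only and no measured value. It gave 84 of 32057 identifiers, of which 28988 had a symbol: 36 genes of the small subunit, 42 of the large subunit, 4 of the ribosomal stalk (rplp0, rplp1, rplp2 and rplp2l), and 2 that carry such a name but are not parts of the ribosome, rps19bp1 (a binding partner of Rps19) and rpl7l1 (a nucleolar factor of large subunit assembly). Symbols held by a pair of identifiers numbered 4, among them rpl5 and rps26, and made up 8 identifiers in all. The copies of rpl5 and rps26 are named by their identifiers.

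RNA came from whole zebrafish pooled at 30 to 35 per library, and there were 10 libraries in 5 groups of 2. At 2 days post fertilization (dpf) the groups were rpgrip1l-/- embryos with a curled-down tail (CDT), rpgrip1l-/- embryos whose tail looked normal (normal), and WT. At 5 dpf they were rpgrip1l-/- larvae (mutant), whose tail shape the labels do not give, and WT. Rpgrip1l is a protein of the ciliary transition zone, and the mutant allele is a CRISPR/Cas9 frameshift made in the AB strain. The mutants came from crosses of homozygous mutants, so that their mothers lacked the gene as well, and WT came from AB crosses, so that parents differed with genotype. The labels call WT rpgrip1l wild-type at 2 dpf and only wild-type at 5 dpf. Nothing in the labels says that the 2 pools of a group came from different clutches. The paper describes mutants with curled and with normal tails as siblings of a clutch, so pools of these groups may share clutches. The permutation tests below take each library as independent. The p-values therefore measure the spread between these pools.

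A ribosome is built from a small and a large subunit, each of which contains ribosomal RNA and a set of proteins that cells make in matched amounts. The mRNAs of most of these proteins carry a short pyrimidine tract at their start, the TOP motif, through which mTORC1 signalling and the protein Larp1 control their translation and stability in mammalian cells. In humans, loss of a gene copy of any of several ribosomal proteins causes Diamond-Blackfan anemia, and free RPL5 and RPL11 bind MDM2 and so stabilise p53.

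Each library held 9101264 to 17536165 counts on genes, and 45.6% to 47.3% of the reads fell on no gene. Reads that did not align made up 6.24% and 6.72% of the reads in the WT libraries at 2 dpf. They made up 4.02% to 4.70% in the mutant libraries at 2 dpf and 4.73% to 5.17% at 5 dpf. Their part in the results was not tested. Reads that aligned to several places, which were not counted, made up 3.48% and 4.05% of the reads in the WT libraries and 4.95% to 6.31% in the mutant libraries at 2 dpf, and 3.20% to 3.88% at 5 dpf, and their part in the results was not tested. The mutated gene rpgrip1l had only 11 to 36 counts per library, and no difference between genotypes passed the test (log2 fold change -0.19 ± 0.38 (SE) in CDT, 0.01 ± 0.38 in normal and -0.09 ± 0.45 in mutant larvae, with adjusted p from 0.724 to 0.99 by edgeR's quasi-likelihood test), so its level did not check the labels. Levels are given as counts scaled to library size (CPM) after TMM scaling, computed within each age unless said otherwise. CPM takes no account of gene length, and so it is compared between groups and not between genes. A gene is called changed at an adjusted p under 0.05, adjusted over all genes tested.

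The ribosomal protein genes took a smaller share of all gene counts in rpgrip1l-/- than in WT at both ages, with a far wider gap at 2 dpf. This share needs no scaling factor. The share was 16.6% and 17.0% in the WT libraries at 2 dpf. It was 12.1% and 13.1% for CDT embryos and 12.5% in both libraries of normal embryos. At 5 dpf it was 13.8% and 13.3% in WT and 13.1% and 13.2% in mutant larvae. Every mutant library lay below every WT library of its age, and the 4 mutant libraries at 2 dpf also lay below all libraries at 5 dpf. The mean difference between genotypes, with labels permuted within age, was -2.33 percentage points (exact permutation test, two-sided, p = 0.0111, the smallest that 90 arrangements allow). It was -4.29 points at 2 dpf (exact permutation test of 4 against 2 libraries, p = 0.0667, again the smallest possible) and -0.375 points at 5 dpf, where 2 against 2 libraries cannot reach a p below 0.333. In RNA of whole embryos fewer cells of a type and less RNA per cell cannot be told apart, nor can genotype and parents.

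**Figure D1:**
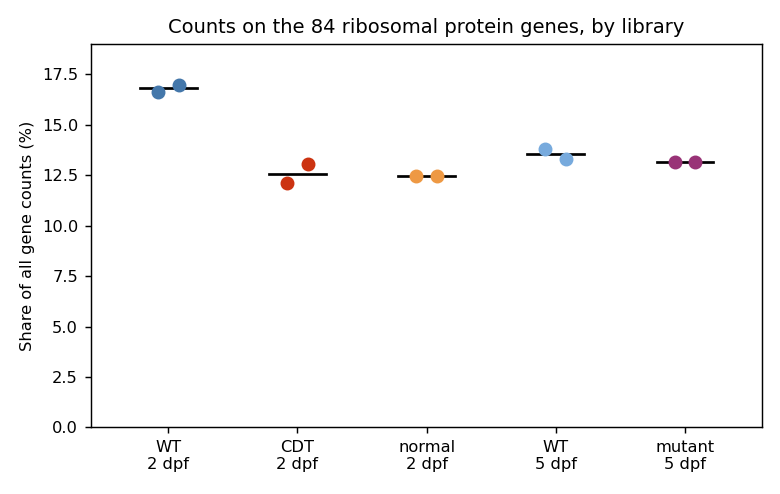
Share of all gene counts, in percent, that fell on the 84 ribosomal protein genes. Each point is a library, the bar is the mean of the 2 libraries of a group, and the vertical axis starts at 0: the WT libraries at 2 dpf stand at 16.6% and 17.0%, and the other 8 libraries lie between 12.1% and 13.8%.

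The subunits shared this pattern, though not in full proportion. Small subunit genes took 7.57% ± 0.11 (SD, n = 2) of the gene counts in WT at 2 dpf, 5.53% ± 0.35 in CDT and 5.49% ± 0.01 in normal embryos. Large subunit genes took 8.04% ± 0.08, 6.21% ± 0.31 and 6.10% ± 0.01, and the stalk genes 1.18% ± 0.04, 0.821% ± 0.013 and 0.867% ± 0.016. The ratio of large to small subunit counts was 1.06 and 1.07 in the WT libraries at 2 dpf and 1.11 to 1.13 in the 4 mutant libraries. At 5 dpf the ratio was 1.12 and 1.16 in WT and 1.15 and 1.17 in mutant larvae, so that there the genotypes overlapped.

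In CDT embryos at 2 dpf nearly the whole set fell relative to WT. Of the 83 genes that passed the filter on low counts, 81 fell, none rose, and 2 did not pass the test: 34 of 36 small subunit, 41 of 41 large subunit and 4 of 4 stalk genes fell, as did rps19bp1 and rpl7l1. Over all 19636 genes tested in this comparison, 40.5% were called, 20.4% lower and 20.0% higher. The median log2 fold change of the 83 genes was -0.83, against 0.03 for all genes. In 81 of the 83 both CDT libraries lay below both WT libraries, which held for 33.6% of all genes (35.8% in the opposite direction). The filter left out rpl26, which had 0 to 4 counts per library.

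The steepest falls were in rpl11, rps20, rps12 and rps23. The large subunit gene rpl11, whose protein lies next to the 5S ribosomal RNA, stood at 6429 and 6722 CPM in WT and at 2638 and 3110 CPM in CDT, 2.29-fold lower (log2 fold change -1.19 ± 0.082 (SE), adjusted p = 1.77e-16, edgeR quasi-likelihood test). The small subunit gene rps20 stood at 5616 and 5717 CPM in WT and at 2347 and 2746 CPM in CDT (-1.15 ± 0.082, adjusted p = 5.56e-16). For rps12 the WT libraries gave 3890 and 4005 CPM and the CDT libraries 1677 and 1918 CPM (-1.13 ± 0.082, adjusted p = 8.75e-16). In each of these genes the lowest WT library held more than 2 times the CPM of the highest CDT library. The decoding-centre gene rps23 was 2.13-fold lower, with 4252 and 4756 CPM in WT and 1960 and 2267 CPM in CDT (-1.09 ± 0.084, adjusted p = 6.03e-15).

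Stalk genes, whose products recruit translation factors to the large subunit, fell as well. The base of the stalk is rplp0, a gene often used as a reference in quantitative PCR, and it stood at 9004 and 9701 CPM in WT and at 4208 and 4589 CPM in CDT (-1.09 ± 0.079, adjusted p = 9.28e-16). For rplp1 the log2 fold change was -0.75 ± 0.082, for rplp2 -0.76 ± 0.085 and for rplp2l -0.89 ± 0.082. The small subunit gene rps2, which held the most counts of the set in every group, stood at 14821 and 15282 CPM in WT and at 6871 and 7939 CPM in CDT.

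At the other end, the 4 called genes that fell least were rpl9 (30.5 and 33.1 CPM in WT against 24.2 and 26.1 CPM in CDT, log2 fold change -0.34 ± 0.12, adjusted p = 0.0169), rps19bp1 (-0.35 ± 0.11, adjusted p = 0.0118), rpl29 (-0.44 ± 0.092) and rpl21 (-0.47 ± 0.081). Of these, rps19bp1 is the binding partner of Rps19 and no part of the ribosome, and rpl9 encodes a large subunit protein. The falls of rpl9 and rps19bp1 did not pass without WT replicate 2 or without CDT replicate 1, and that of rpl9 did not pass with DESeq2 (adjusted p = 0.0685). All 4 calls were lost with library size alone, where the log2 fold changes were 0.11 for rpl9, 0.10 for rps19bp1, 0.013 for rpl29 and -0.020 for rpl21. The fall of rpl29 was -0.27 without CDT replicate 1 and -0.63 without CDT replicate 2. The 2 genes that were not called included rps11l, at 1 to 3 CPM (-0.62 ± 0.41, adjusted p = 0.234).

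In embryos with a normal tail the same comparison with WT gave 79 genes that fell, 0 that rose and 4 that did not pass, over the 83 tested. Here 39.6% of all genes were called, 20.4% lower and 19.2% higher. The median was -0.84, against 0.01 for all genes. Both normal libraries lay below both WT libraries in 81 genes, which held for 34.5% of all genes (34.7% in the opposite direction). This comparison uses the WT libraries of the previous one, so its values are given side by side with those above. The gene rpl11 stood at 2892 and 2901 CPM in normal embryos (-1.18 ± 0.082), rps12 at 1757 and 1761 CPM (-1.17 ± 0.082), rps20 at 2642 and 2542 CPM (-1.13 ± 0.082) and rps23 at 2083 and 2138 CPM (-1.09 ± 0.084), with adjusted p from 2.95e-16 to 5.97e-15 by edgeR.

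The called genes that fell least were rpl7l1 (-0.30 ± 0.093, adjusted p = 0.00811), rpl29 (-0.36 ± 0.093, adjusted p = 0.0014), rps27l (-0.42 ± 0.096) and rpl39 (-0.46 ± 0.085). The product of rpl39 is a small protein at the nascent peptide exit tunnel. The 4 that did not pass included rpl9 (-0.14 ± 0.12, adjusted p = 0.365), rps19bp1 (-0.18 ± 0.12, adjusted p = 0.225) and rps11l (-1.02 ± 0.45, adjusted p = 0.0678). The fall of rpl7l1 did not pass without WT replicate 1 or normal replicate 2, and that of rpl29 did not pass without normal replicate 2 or with DESeq2. These 4 calls were lost with library size alone, where the log2 fold changes were 0.15 for rpl7l1, 0.087 for rpl29, 0.029 for rps27l and -0.0079 for rpl39.

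**Figure D2:**
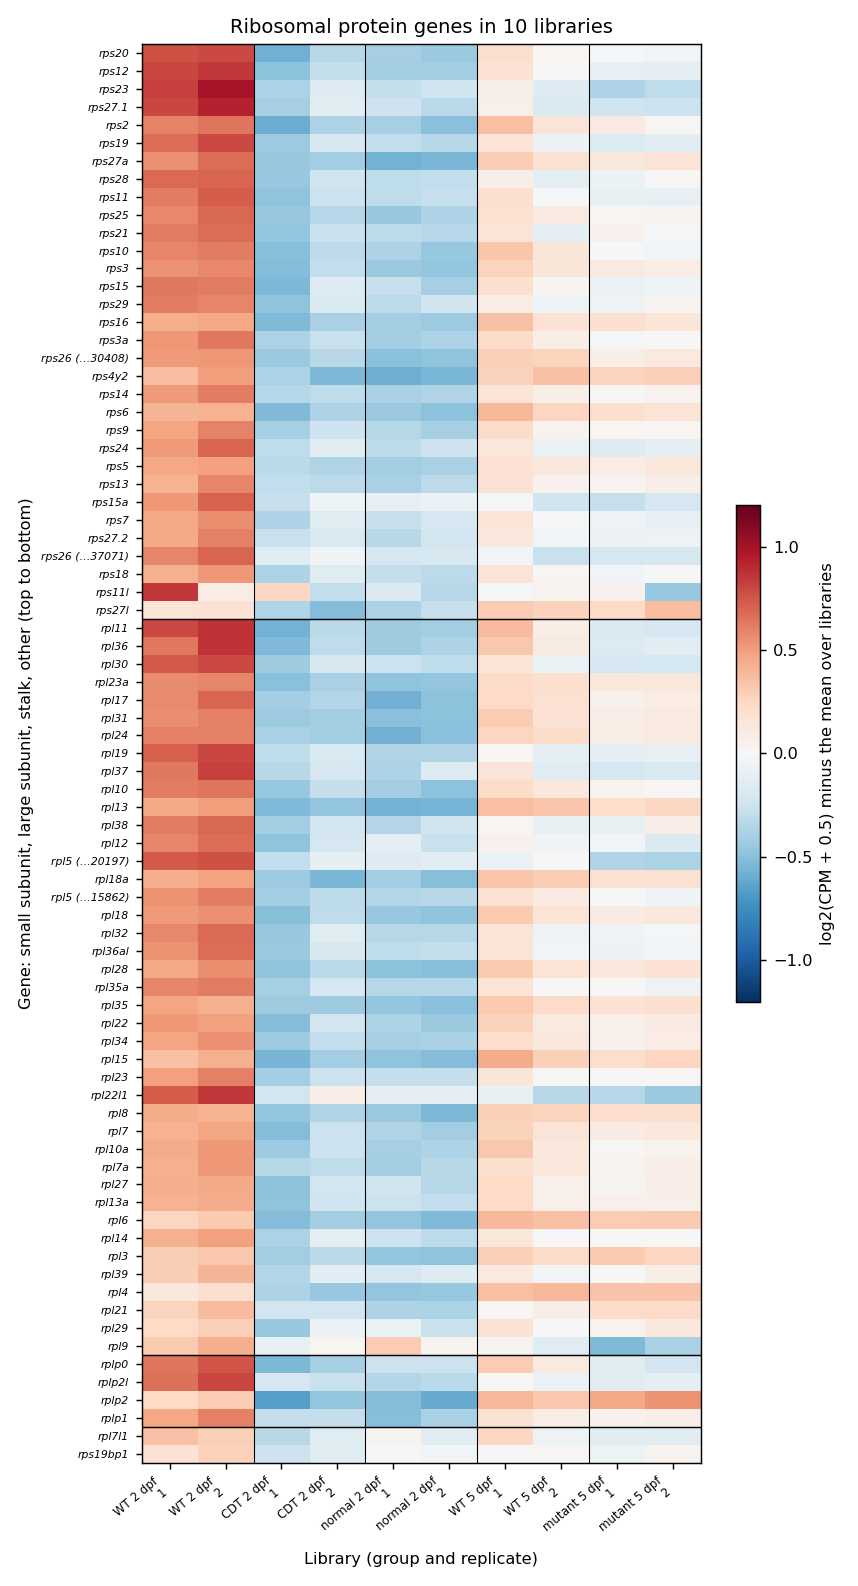
Levels of the ribosomal protein genes of at least 1 CPM on average, other than those not reported here, in the 10 libraries, as log2(CPM + 0.5) minus the mean of the gene over the libraries, on the scale of all 10 libraries, with genes ordered by subunit and by the change in CDT. The WT libraries at 2 dpf are above the mean in nearly every row and the 4 mutant libraries at 2 dpf below it.

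A chosen list of zebrafish orthologs of ribosomal protein genes mutated in Diamond-Blackfan anemia, not meant as complete, was measured by 12 identifiers. All 12 fell in CDT (log2 fold changes -1.19 to -0.66, median -0.86) and in normal embryos (-1.18 to -0.64, median -0.86). So did 81 of the 83 genes tested of the set in CDT (median -0.83) and 79 in normal embryos (median -0.84). These orthologs therefore moved as the set did, while 20.4% of all genes fell in each comparison. Among the 12, rps19 stood at 2240 and 2442 CPM in WT, at 1098 and 1295 CPM in CDT and at 1213 and 1162 CPM in normal embryos. The large subunit gene rpl35a stood at 2082 and 2132 CPM in WT, at 1112 and 1267 CPM in CDT and at 1157 and 1151 CPM in normal embryos. No mutant library reached a WT library in either gene.

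The size of the falls depended on the scaling. The 100 most abundant genes outside the set took 33.2% ± 0.45 (SD, n = 2) of the gene counts in WT at 2 dpf and 28.8% ± 0.36 in CDT and 28.8% ± 0.40 in normal embryos. The TMM factors were 0.80 and 0.82 in WT and 1.096 to 1.126 in the mutants. With library size alone, the median over all genes moved to 0.48 in CDT and 0.46 in normal embryos, and that of the ribosomal protein genes to -0.37 and -0.39. Relative to all genes the shift was -0.85 with TMM and with library size alone, in both comparisons. A change of library factors moves all genes by nearly the same amount. This match was therefore fixed in advance and is no check on the scaling. With library size alone 72 of the 83 genes still fell and none rose in CDT. In normal embryos 74 fell, while rpl9 (0.31, adjusted p = 0.0258) and rps19bp1 (0.27, adjusted p = 0.0449) rose. The share of all genes called with library size alone is not given here, and the shares above are those with TMM.

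When each library was instead scaled to its total of ribosomal protein counts, a scaling chosen after the data were seen, a call meant that a gene departed from the set. In CDT embryos 8 genes fell further than the set: rpl11 (-0.33), rps20 (-0.29), rps12 (-0.27), rps23 (-0.22), rpl36 (-0.22), rplp0 (-0.22), rps27.1 (-0.18) and rps2 (-0.16). At the opposite side 20 genes were higher relative to the set, among them rpl4 (0.38), which encodes a long protein lining the exit tunnel, rpl3 (0.26), of the peptidyl transferase region, and rpl21 (0.40). In normal embryos 10 genes were lower and 18 higher relative to the set, again with rpl11 (-0.30) at the low end and rpl9 (0.74) at the high end. The falls were unequal within the set. The total holds each gene itself, so a steeper fall of an abundant gene raises the others relative to it. The gene rps2 alone held 7.32% and 7.20% of the set's counts in WT at 2 dpf. The share of all genes called under this scaling is not given here. Genes called only under this scaling, and rpl36 and rpl12 elsewhere, were singled out after their values were seen.

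Other tissues and classes also differed between these groups. Summed CPM of the marker genes was lower in all 4 mutant libraries at 2 dpf than in WT for skeletal muscle (3 of 4 markers matched, 10373 and 10380 in WT, 6227 to 7299 in mutants), epidermis (4 of 4, 66856 and 72766 against 41114 to 45261), erythroid cells (2 of 4, 2305 and 2354 against 1264 to 1589), liver (4 of 4, 17015 and 18489 against 9037 to 9888), exocrine pancreas (3 of 4, 37.8 and 41.9 against 1.39 to 2.86, with amy2a not tested at 2 dpf) and photoreceptors (3 of 4, 19.2 and 21.2 against 7.81 to 9.85). It was higher for neurons (2 of 4, 77.3 and 82.6 against 118 to 136) and for lens (3 of 3, 1035 and 1059 against 1235 to 1393), on the scale of all 10 libraries. Single markers could go against the sum, as the muscle myosin gene myhz2 did (log2 fold change 0.73 in CDT and 1.06 in normal). These sums rest on the TMM scaling, as the fold changes do. The part of these differences in the ribosomal result was not tested.

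On the TMM scale the direction was the same among abundant genes in general, with a smaller shift. Of the 500 most abundant genes outside the set, 357 fell and 54 rose in CDT, with a median of -0.43, and 347 fell and 46 rose in normal embryos, with a median of -0.42. Genes of mitochondrial ribosomal proteins, which translate the few proteins encoded in mitochondrial DNA, fell in 66 of 75 in CDT (median -0.51) and in 56 of 75 in normal embryos (median -0.45), and none rose. These falls are on the TMM scale. As a share of gene counts, these genes took 0.281% and 0.276% in WT and 0.249% and 0.269% in CDT. In normal embryos they took 0.277% and 0.280%, which overlapped with WT. The 4 cytosolic ribosomal protein genes that the naming rule missed all fell in both mutant groups, among them rack1 (-0.56 in CDT and -0.57 in normal), fau (-0.59 and -0.59) and faub (-0.72 and -0.90). The product of fau is a ribosomal protein fused to a ubiquitin-like protein.

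Of 43 genes of ribosome biogenesis 15 fell (34.9%) and 1 rose (2.33%) in CDT, with a median of -0.14, where 20.4% of all genes fell and 20.0% rose. In normal embryos 11 fell (25.6%) and 6 rose (14.0%), with a median of 0.02, where 20.4% of all genes fell and 19.2% rose. The fallers included bysl (-0.80 in CDT and -0.59 in normal), of small subunit assembly, and nop10 (-0.76 and -0.67), of the pseudouridylation complex, while mdn1, the large ATPase of large subunit maturation, rose (1.21 and 1.27). Of 11 genes of RNA polymerase I and its factors 3 fell and 2 rose in CDT and 2 fell and 2 rose in normal embryos (45.5% and 36.4% called, near the 40.5% and 39.6% of all genes), with ubtf, the factor of ribosomal DNA chromatin, at 0.71 and 0.77. Translation factors fell in 43 of 78 and rose in 8 in CDT (median -0.27), and fell in 37 and rose in 9 in normal embryos (median -0.24). The calls in these lists rest on the TMM scaling. As a share of gene counts, biogenesis genes were higher in the mutants: 0.165% in WT, 0.193% in CDT and 0.215% in normal embryos (means). Translation factors took 2.58%, 2.65% and 2.59%, so their share was not lower in the mutants.

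Of 13 genes of mTORC1 signalling and of TOP mRNA control 2 fell and 1 rose in CDT (23.1% called, against 40.5% of all genes), and 4 fell and 1 rose in normal embryos (38.5%, near the 39.6% of all genes). The kinase gene mtor rose (0.78 and 0.86), larp1 did not pass the test (0.08 and 0.28), and eif4ebp1, whose product holds back cap-dependent initiation, fell (-0.56 and -0.60). Among 8 p53 pathway genes 2 fell and 1 rose in CDT (37.5% called, near the 40.5% of all genes) and 2 fell and none rose in normal embryos, where 39.6% of all genes were called. The p53 target cdkn1a was at -0.56 (adjusted p = 0.0173, edgeR) in CDT and -0.38 (adjusted p = 0.122) in normal embryos, and ccng1 fell in both (-0.71 and -0.79).

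**Figure D3:**
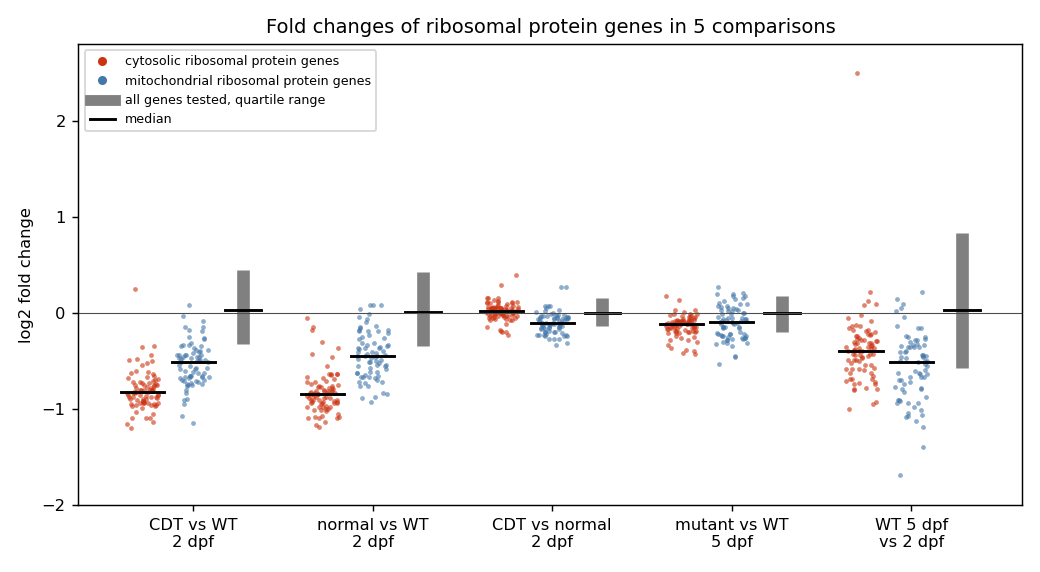
Log2 fold changes of 83 cytosolic and 75 mitochondrial ribosomal protein genes in 5 comparisons, where each point is a gene, black bars are medians and grey bars span the quartiles of all genes tested, and the cytosolic medians are -0.83 and -0.84 against WT at 2 dpf, 0.03 between the mutant groups, -0.11 at 5 dpf and -0.39 from 2 to 5 dpf in WT.

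Between the 2 mutant groups at 2 dpf, which the study compared in order to find genes that go with tail curling, no ribosomal protein gene was called by edgeR or by DESeq2. In this comparison 0.952% of all genes were called, 0.657% higher and 0.295% lower. The median of the 83 genes was 0.03, against 0.01 for all genes, and the range was -0.23 to 0.40. Unadjusted p was under 0.05 for 2 genes, among them rplp0 (4208 and 4589 CPM in CDT, 5063 and 5051 CPM in normal, -0.20 ± 0.078, adjusted p = 0.29). In this gene both CDT libraries lay below the normal ones. Both CDT libraries lay above both normal ones in 20 of the 83 genes and below them in 5, against 19.8% and 19.2% of all genes. Without CDT replicate 2, in which the share was higher than in CDT replicate 1, 3 genes passed as lower, among them rplp0 and rpl12. The share of counts differed by 0.108 percentage points (exact permutation test of 2 against 2 libraries, two-sided, p = 1).

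At 5 dpf the gap between genotypes was small. Of 83 genes tested 2 fell, none rose and 81 did not pass, where 3.84% of all genes were called, 2.56% lower and 1.28% higher. The 2 were rpl11 (4343 and 3529 CPM in WT, 2965 and 2898 CPM in mutants, -0.42 ± 0.10, adjusted p = 0.033, edgeR) and rplp0 (6431 and 5630 CPM in WT, 4743 and 4426 CPM in mutants, -0.40 ± 0.094, adjusted p = 0.0294). In both genes the mutant libraries lay below the WT libraries, and the WT libraries differed from each other by more than the mutant libraries did. Neither call held without mutant replicate 1 or without mutant replicate 2 (adjusted p = 0.16 to 0.481, edgeR).

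Further genes came close to the threshold at 5 dpf: rpl36 (1688 and 1452 CPM in WT, 1207 and 1227 CPM in mutants, -0.37 ± 0.10, adjusted p = 0.0547) and the rpl5 copy ENSDARG00000020197 (2087 and 2180 CPM in WT, 1708 and 1681 CPM in mutants, -0.33 ± 0.091, adjusted p = 0.0557). These passed with DESeq2, which called 4 genes. Without WT replicate 2 there were 15 calls, all lower. The shares of all genes called in these alternative fits are not given here. In the main fit the median over the 83 genes was -0.11, against 0.00 for all genes, and 78 of the 83 had a negative value. With library size alone the median was -0.01. In 58 of the 83 genes both mutant libraries lay below both WT libraries, which held for 24.2% of all genes (23.4% in the opposite direction). Only rplp2 (703 and 667 CPM in WT, 734 and 775 CPM in mutants, 0.14 ± 0.095) and rpl21 (1079 and 1119 against 1251 and 1245 CPM, 0.18 ± 0.092) had both mutant libraries above both WT libraries, and neither passed the test (adjusted p = 0.5 and 0.334). Of the 12 Diamond-Blackfan identifiers, the 1 called was rpl11.

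Of the lists set beside the ribosomal proteins, exocrine pancreas markers were lower in mutants at 5 dpf too (3551 and 4631 summed CPM in WT, 1124 and 2515 in mutants), as were liver markers (8532 and 8882 against 4779 and 7278) and muscle markers (26904 and 29863 against 23191 and 24615), while photoreceptor markers (1258 and 1602 against 1999 and 2044), neuronal markers (78.4 and 83.0 against 104 and 112) and erythroid markers were higher (498 and 607 against 657 and 743), as were epidermal markers (29057 and 30732 against 32197 and 33469). Lens markers overlapped (4799 and 4882 against 4667 and 5216). The sums were not tested. Of single markers, 3 of 3 pancreas, 2 of 4 liver, 2 of 5 photoreceptor and 1 of 2 neuronal identifiers passed the edgeR test. No muscle, epidermal or erythroid marker passed, and 1 epidermal and 1 photoreceptor identifier had a negative log2 fold change. Over all genes, libraries did not overlap in 24.2% (lower) and 23.4% (higher). The part of these markers in the result at 5 dpf was not tested.

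The genotype effect on ribosomal protein genes differed between the ages. In a fit of all 10 libraries, the log2 fold change of mutants against WT at 5 dpf minus that at 2 dpf, with CDT and normal averaged, passed the test in 78 of 83 genes and was positive in all 78. Over all genes 23.4% were called, 14.7% in that direction and 8.74% in the other. The direction was not particular to the set. Of the 500 most abundant genes outside the set, 330 passed as positive and 24 as negative (median 0.45). Mitochondrial ribosomal protein genes passed as positive in 44 of 75 and as negative in 0 (median 0.47). Translation factors passed as positive in 37 of 80 and as negative in 2 (median 0.34). Genes of ribosome biogenesis passed as positive in 8 of 43 and as negative in 1 (median 0.08). The median difference of the 83 ribosomal protein genes was 0.79, against 0.06 for all genes. It was largest for rps20 (1.07 ± 0.11, adjusted p = 2.86e-07), rps12 (1.02 ± 0.11), rps27a (1.01 ± 0.11), which encodes a ribosomal protein fused to ubiquitin, and rps28 (1.00 ± 0.12), and smallest among the called for rpl29 (0.47 ± 0.14, adjusted p = 0.0147), whose call was lost without WT 2 dpf replicate 2 or WT 5 dpf replicate 2 and with upper quartile scaling (0.37). The 5 genes in which it did not pass included rpl9 (-0.10 ± 0.16, adjusted p = 0.715), rpl7l1 (0.23 ± 0.14), rps19bp1 (0.32 ± 0.14) and rps11l (0.61 ± 0.62). With library size alone 62 genes passed as positive and rpl9 (-0.52) as negative, while rpl29 (0.048), rpl39 (0.13) and rpl4 (0.14) did not pass. The share of all genes that passed with library size alone is not given here.

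The gene rpl9 was the only ribosomal protein of over 10 CPM whose point estimate was further below WT at 5 dpf (22.5 and 19.9 CPM in WT, 15.1 and 16.7 CPM in mutants, -0.41 ± 0.13, adjusted p = 0.0986) than in either mutant group at 2 dpf, and this difference between ages did not pass. With 218 to 383 counts per library, rpl9 lay far below the median level of the set. Whether its reads were lost in alignment or counting was not tested. The comparison at each age uses its own WT libraries. Over the 77 genes of at least 100 CPM on average, the mean log2 fold change at 2 dpf (-1.19 to -0.40) and that at 5 dpf (-0.42 to 0.18) gave a Pearson r of 0.55 and a Spearman rho of 0.50 across genes, with rpl11 the most negative of the 77 at both ages. Over all 83 genes tested the values were 0.15 and 0.38. Genes are not independent replicates, and the libraries of an age share their scaling.

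**Figure D4:**
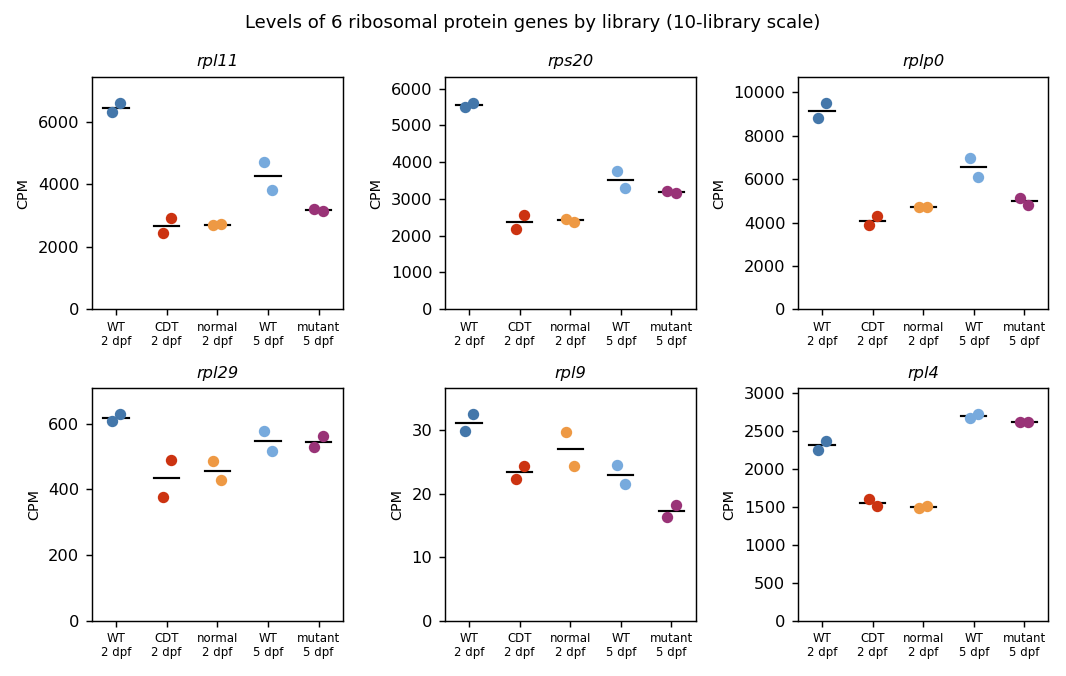
CPM of 6 ribosomal protein genes in each library, on the scale of all 10 libraries, with each axis starting at 0, points for libraries and bars for group means. For rpl11, rps20 and rplp0 the 4 mutant libraries at 2 dpf lie far below WT of that age and the 5 dpf groups lie nearer to each other, while rpl4 is higher in WT at 5 dpf than in WT at 2 dpf.

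In WT development from 2 to 5 dpf most ribosomal protein genes fell. The WT libraries at 2 dpf also served the comparisons with mutants at 2 dpf and the difference between ages. These results are therefore not independent of each other. On the scale of all 10 libraries 64 of 83 fell, 2 rose and 17 did not pass, in a comparison in which 60.8% of all genes were called, 29.5% lower and 31.3% higher. The median was -0.39, against 0.03 for all genes. Both WT libraries at 5 dpf lay below both at 2 dpf in 77 genes, which held for 38.6% of all genes (40.9% in the opposite direction). The median level of the 83 genes was 2039 and 2143 CPM in the younger WT libraries and 1653 and 1522 CPM in the older ones. The mutant groups stood at 1016 and 1184 CPM in CDT, 1091 and 1075 CPM in normal embryos and 1419 and 1439 CPM in mutant larvae. On this scale the mutant groups were higher at 5 than at 2 dpf where WT was lower. The size of that rise depends on the scaling. As a share of gene counts the mutant libraries held 12.09% to 13.05% at 2 dpf and 13.15% and 13.17% at 5 dpf. Mutants of the 2 ages were not compared by a test.

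The largest fall in development was in rpl22l1, the paralog of rpl22, from 985 and 1069 to 558 and 470 CPM (-0.998 ± 0.10, adjusted p = 1.79e-09, edgeR). Next were rps23, from 4163 and 4666 to 2479 and 2113 CPM (-0.94 ± 0.093), rps27.1, from 3155 and 3426 to 1880 and 1598 CPM (-0.92 ± 0.094), and rpl19, from 2954 and 3126 to 1828 and 1658 CPM (-0.80 ± 0.083). The libraries of the ages did not overlap in any of these genes. Among the genes that fell least was rpl7 (-0.23 ± 0.087, adjusted p = 0.022), and this call was lost without WT 2 dpf replicate 1 or 2 or WT 5 dpf replicate 2, with library size alone (-0.13) and with at least 10 counts in every library (-0.15).

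Of the 2 genes that rose, rpl4 went from 2255 and 2370 to 2668 and 2723 CPM (0.22 ± 0.079, adjusted p = 0.0173, edgeR). The rise of rpl4 did not pass without WT 2 dpf replicate 1 or WT 5 dpf replicate 2. Both rpl6 (0.20) and rplp2 (0.19) rose as well with library size alone. The fall of the ribosomal proteins was accompanied by lower proliferation genes (11 of 17 fell and 1 rose, median -1.01) and by higher ribosome biogenesis genes (30 of 43 rose and 6 fell, median 0.47), such as ddx21 (1.89), heatr1 (1.85) and mybbp1a (1.71). Genes of mitochondrial ribosomal proteins fell in 62 of 75 and rose in 1 (median -0.51). Translation factors fell in 29 of 80 and rose in 22 (median -0.0057). Of the 500 most abundant genes outside the set, 255 fell and 179 rose (median -0.23). Over all genes 29.5% fell and 31.3% rose.

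Relative to the set, that is with each library scaled to its ribosomal protein counts, 21 genes fell and 19 rose from 2 to 5 dpf in WT. The share of all genes called under this scaling is not given here either, so these counts have no background to be read against. The low end held rpl22l1 (-0.59), rps23 (-0.53) and rps27.1 (-0.51), and the genes at the high end included rpl4 (0.64), rps27l (0.54), rpl6 (0.51) and rplp2 (0.50).

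Related genes were therefore compared with each other within each library, as ratios of counts, which do not depend on scaling. The ratios were chosen after the values were seen, 9 pairs were tested for age and for genotype, and p-values were adjusted over these 18 tests. For rpl22l1 over rpl22 the ratio was 0.685 to 0.756 in the 6 libraries at 2 dpf (median 0.732) and 0.407 to 0.459 in the 4 at 5 dpf (median 0.442), without overlap (exact permutation test, two-sided, p = 0.00476, the smallest that 210 arrangements allow, adjusted p = 0.0171). No difference between genotypes passed in this ratio (log2 difference -0.025, exact permutation within age, p = 0.667).

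The same test gave the same p for the pairs of rplp2, rps26 and rpl5. The ratio of rplp2l to rplp2 was 2.06 to 2.59 at 2 dpf and 1.17 to 1.40 at 5 dpf. That of the rps26 copies, ENSDARG00000037071 over ENSDARG00000030408, was 0.876 to 1.02 at 2 dpf and 0.571 to 0.681 at 5 dpf, and that of the rpl5 copies, ENSDARG00000020197 over ENSDARG00000015862, was 1.54 to 1.66 and 1.11 to 1.32. The balance within these pairs differed between the ages without overlap of libraries. The ratios of rpl7l1 to rpl7 (exact permutation test, adjusted p = 0.0701) and of rps27.2 to rps27.1 (adjusted p = 0.0929) overlapped between ages and did not pass. The ratio of rps27l to rps27.1 was 0.0194 to 0.0335 at 2 dpf and 0.0386 to 0.0504 at 5 dpf (exact permutation test, adjusted p = 0.0222).

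Genotype went with the balance in 3 pairs, of which 2 share the denominator rps27.1 and are not separate results. Relative to the set, rps27.1 was already lower in CDT (-0.18) and in normal embryos (-0.19). The tests of these pairs therefore go back to departures seen before the pairs were chosen. The ratio of rps27.2 to rps27.1 was 0.413 and 0.422 in WT at 2 dpf, 0.575 and 0.508 in CDT and 0.497 and 0.563 in normal embryos, and 0.552 and 0.581 in WT and 0.593 and 0.604 in mutants at 5 dpf. For rps27l over rps27.1, 0.0208 and 0.0194 in WT at 2 dpf stood against 0.0332, 0.0247, 0.0297 and 0.0335 in the mutants, and 0.0386 and 0.0446 against 0.0455 and 0.0504 at 5 dpf. For the rps26 copies the mutants were also above WT at both ages (0.876 and 0.940 against 1.01 to 1.02, and 0.664 and 0.571 against 0.681 and 0.669). In all 3 every mutant library was above every WT library of its age (exact permutation within age, two-sided, p = 0.0111, the smallest of 90 arrangements, adjusted p = 0.0222). For rplp2l over rplp2 the mean log2 ratio was -0.20 in mutants relative to WT (adjusted p = 0.06, exact permutation), and the CDT libraries overlapped with WT at 2 dpf.

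**Figure D5:**
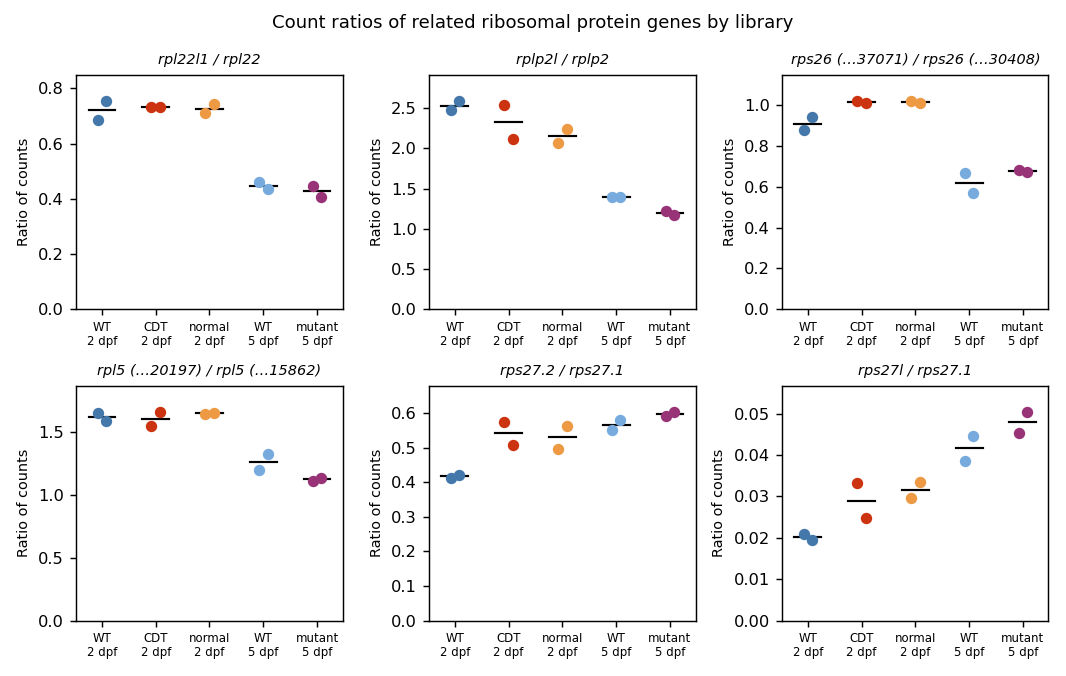
Count ratios of 6 pairs of related ribosomal protein genes in each library, with axes starting at 0, points for libraries and bars for group means, where copies that share a symbol carry the last digits of their identifiers. In the first 4 panels all 2 dpf libraries lie above all 5 dpf libraries, and in the last 2 panels the WT libraries at 2 dpf are the lowest.

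Reads of near-identical copies can be lost or split when reads that align to several places are not counted. The levels of the pairs above are uncertain to that extent. At 2 dpf such reads made up 3.48% and 4.05% in the WT libraries and 4.95% to 6.31% in the mutant libraries, and parents differed with genotype. Their part in the ratios between genotypes was not tested.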

How the data were processed

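Poly(A) RNA of whole embryos and larvae was sequenced as read pairs in 10 libraries. The authors trimmed the reads with Trim Galore 0.4.4, used STAR 2.7.3a for alignment against GRCz11, and deposited raw HTSeq 0.12.3 counts per gene, made at the default setting of HTSeq-count, which takes libraries as stranded and leaves out reads that align to several places. Whether the libraries were stranded is not given in the sources used here. Gene counts per library ranged from 9101264 to 17536165. The 5 HTSeq summary lines, which name no gene, were left out of library sizes and tests.

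Symbols came from a gene name table. Counts were scaled by TMM and tested with edgeR 4.0.16 (quasi-likelihood test, filterByExpr by group, R 4.3.3) within 2 dpf (6 libraries, 3 residual degrees of freedom) and within 5 dpf (4 libraries, 2), and over all 10 libraries (5) for comparisons across ages. Adjusted p-values are Benjamini-Hochberg values over all genes tested. The SE beside an edgeR log2 fold change was derived from the test. It is the absolute log2 fold change divided by the square root of the quasi-likelihood F statistic, an approximation that edgeR itself does not report. Shares and ratios were tested by exact permutation of libraries. Scripts were tested on simulated counts with known folds, set in both directions in a small part of the genes. That test does not cover a wide shift such as in CDT against WT, where 40.5% of all genes were called. It is therefore no check on the TMM scaling there. DESeq2 1.42.0, other scalings and filters, a replicate block and the omission of each library were tried as alternatives.

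The genes named were the 4 highest and 4 lowest called genes of each comparison at 1 CPM or more without overlap of libraries, the most abundant genes, related pairs, the stalk genes, the chosen Diamond-Blackfan orthologs and those below 1 CPM or not called. The lists, and the genes of the set to be named, were chosen with earlier results of these data known. The set itself was taken by symbol alone. No gene lengths or sequences were used. Some genes of the set and of the lists entered all counts, medians and tests but are not reported here by name.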

Additional observations from a re-analysis of the deposited data

Results flagged for a closer look

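The genotype effect on ribosomal protein genes was examined further because it differed between the ages by a test of the difference itself (edgeR quasi-likelihood test, all 10 libraries). The difference passed in 23.4% of all genes and in 354 of the 500 most abundant genes outside the set. Among ribosomal protein genes the log2 fold change of mutants against WT at 5 dpf, minus that at 2 dpf, passed in 78 of 83. It was 1.07 for rps20, 1.02 for rps12, 1.01 for rps27a and 1.00 for rps28. It was 0.47 for rpl29, 0.55 for rpl39 and 0.56 for rpl4. With library size alone these 3 were 0.048, 0.13 and 0.14 and did not pass, and with upper quartile scaling rpl29 was 0.37 and did not pass. With each library scaled to its ribosomal protein counts, 11 genes passed, a count given without the share over all genes under that scaling. Groups of 2 libraries are too small for a search for single deviating libraries.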

How the results depend on the processing

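The direction of the median at 2 dpf, 5 dpf, in WT development and between ages was the same under all alternatives but the scaling to ribosomal protein counts, which by construction sets the genes against their own total. With library size alone the medians were -0.37 (CDT), -0.39 (normal), -0.0076 (5 dpf), -0.29 (WT development) and 0.37 (difference between ages), and the log2 fold changes were 0.11 for rpl9, 0.10 for rps19bp1 and 0.013 for rpl29 in CDT and 0.15 for rpl7l1, 0.087 for rpl29 and 0.029 for rps27l in normal embryos. With all 10 libraries in 1 fit the medians were -0.90 and -0.92 at 2 dpf, and 4 genes were called at 5 dpf, as with DESeq2 and with no filter on low counts. A minimum of 10 counts in every library gave -0.30 for WT development, and upper quartile scaling gave 0.69 for the difference between ages. With the scaling to ribosomal protein counts, added after the data were seen, 28, 28, 40 and 11 genes were called (CDT, normal, WT development, difference between ages), with medians of 0.046, 0.038, 0.026 and -0.017. The shares over all genes under that scaling are not given here. At 5 dpf the median was 0.033, and rpl11 (-0.27) and rplp0 (-0.25) were called lower and rpl21 (0.33) higher relative to the set. Leaving out 1 library gave 0 to 3 calls between CDT and normal (median -0.067 to 0.088, with the 3 calls without CDT replicate 2), 0 to 15 calls at 5 dpf (15 without WT replicate 2, 0 without either mutant library) and a median of 0.71 to 0.85 for the difference between ages. The cause of these shifts was not tested.

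Libraries of 1 replicate number shared only that number (correlations of deviations 0.0072 to 0.038). With a replicate block 81, 79, 0, 3, 66 and 78 genes were called in CDT, normal, CDT against normal, 5 dpf, WT development and between ages. Shares of all genes called are given for the main fits only, so counts under alternatives have no such background. Over 34 results for single genes, 479 of 520 alternative values kept direction and call, 35 lost the call and 6 changed sign. With 2 libraries a group and 2 residual degrees of freedom at 5 dpf, a call there needs a difference that is large against the spread of 2 pools.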
